A study of Mus musculus with 2 samples.

Results

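Oxidative phosphorylation genes are described here in plasmacytoid dendritic cells (pDCs) of mouse bone marrow, the dendritic cells specialised in type I interferon production. Members were all genes with a probe set of exactly 1 gene symbol that begins with Nduf, Sdh followed by a, b, c or d, Uqcr, Cox4 to Cox8 or Atp5, leaving out pseudogene symbols. This gave 93 of the 19938 genes named on the array. Of these, 41 were placed with complex I, 8 with complex II, 8 with complex III, 19 with complex IV and 17 with complex V. The complex IV group includes Ndufa4, now known as a subunit of cytochrome c oxidase, and its relative Ndufa4l2. The data are 2 Affymetrix Mouse Gene 1.0 ST arrays, 1 for each genotype. Each held RNA of pDCs sorted as CD11b-negative, BST2-positive, B220-positive cells from the marrow of chimeras, hosts given fetal liver cells that rebuild the blood, 2 months after reconstitution. The donor fetal liver was Runx2-/- (Runx2-deficient) for one array and wild type for the other, and 250 ng of RNA was labelled for each. Chimeras limit the model, because host blood cells can survive next to donor cells, and the labels do not give how many mice stand behind an array or their age, sex and strain.

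With 1 array per genotype no difference below has a replicate check, an error or a p-value. Values are linear intensities, a difference is the Runx2-deficient minus the wild-type log2 intensity, and a fold is the ratio of the intensities. Probe sets differ in how brightly they report a transcript, so levels of different genes are not compared. A gene is called past the brightness level where either array read at least that array's median over named genes (log2 of 7.61 for wild type and 7.54 for Runx2 deficiency). All 11 measured pDC markers passed it, among them the pDC receptor gene Siglech, at 11436 in wild-type pDCs and 12028 in Runx2-deficient pDCs, and Tcf4, the factor that specifies pDCs, at 9136 and 8863. Others in this list were further apart, with Spib, a pDC transcription factor, 1.62-fold lower in Runx2-deficient pDCs (-0.69), Pacsin1 at -0.56, Ly6d at -0.46, the sort marker gene Bst2 at -0.31 and Runx1 at 0.47. Runx2 itself was not analysed here, so the genotype labels were not checked on it. Markers of other cells differed between the arrays. All 10 neutrophil and granulocyte precursor markers were lower in the Runx2-deficient sample, with a summed intensity of 17519 in wild-type pDCs and 2213 in Runx2-deficient pDCs, and Ngp and Lcn2 led them. All 7 measured erythroid markers were also lower, with sums of 2468 and 884 and Slc4a1 lowest, and 4 of the 7 passed the brightness level. Of 7 monocyte and macrophage markers, 3 were at least 1.5-fold lower, with Ccr2 furthest at 4.69-fold. Another 2 were at least 1.5-fold higher, C1qb (1.85-fold) and Csf1r (1.56-fold). Among 6 conventional dendritic cell markers, Itgax was 5.39-fold lower and the rest lay within 1.5-fold. No B cell or T and NK cell marker measured was 1.5-fold apart, but many were dim. The brightness level was passed by 3 of 6 B cell markers and by 0 of 5 T and NK cell markers. B cell markers ran from -0.58 (Cd79a) to 0.52 (Ms4a1). All these other cell types also express respiration genes, and their part in the differences below was not tested. In sorted bulk cells a smaller share of a cell type and less RNA per cell cannot be told apart.

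Oxidative phosphorylation makes ATP in the inner mitochondrial membrane. Complexes I (NADH dehydrogenase) and II (succinate dehydrogenase) pass electrons to coenzyme Q, complex III (cytochrome bc1) hands them to cytochrome c, and complex IV (cytochrome c oxidase) reduces oxygen. Complexes I, III and IV pump protons, and complex V (ATP synthase) uses their return to make ATP. In complexes I, III, IV and V the nuclear-encoded subunits must be made in step with a few subunits encoded by mitochondrial DNA, which were not analysed here. Several complex IV subunits exist as paired isoforms, a ubiquitous one and one known from heart and skeletal muscle, lung or testis. In pDCs respiration is known to support the interferon response.

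Of the 93 genes, 88 lay within 1.5-fold, and 70 (75.3%) lay within 0.25 on the log2 scale. The share within 0.25 was 75.3% of all named genes and 65.0% of those past the brightness level. The median difference of the members was 0.026, against -0.033 over all 19938 named genes and -0.014 over the 10337 named genes past the brightness level. Apart by at least 1.5-fold either way were 5 members (5.38%), beside 3.95% of all named genes and 6.88% of those past the brightness level. At least 1.5-fold higher in the Runx2-deficient sample were 4 genes, Cox4i1, Cox7a2l, Atp5mpl and Atp5l (4.30% of 93), beside 1.73% of all named genes and 3.02% of those past the brightness level. At least 1.5-fold lower was 1 gene, Atp5d (1.08%), beside 2.22% and 3.86%. Cox4i1 was also the 1 member past 2-fold, a size reached upward by 0.436% of all named genes and 0.793% of those past the brightness level. By 2-fold lower were 0 members, beside 0.647% and 1.17%. Either way, 1.08% and 1.96% of these genes were 2-fold apart. Above 0 were 51 members, below 0 were 41 and 1 was at 0. That is 54.8% above 0, beside 42.6% of all named genes and 47.8% of those past the brightness level. After median centring of the differences the share above 0 was 64.5% of members, with all named genes then split evenly. With a loess correction of the differences for their trend with intensity, the share was 60.2% of members. All named genes were then split nearly evenly as well. Genes past the brightness level, whose median was -0.014 before these steps, were not compared after either step. The brightness level was passed by 81 members. The other 12 had differences from -0.31 to 0.17, and none of them was 1.5-fold apart.

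**Figure D1:**
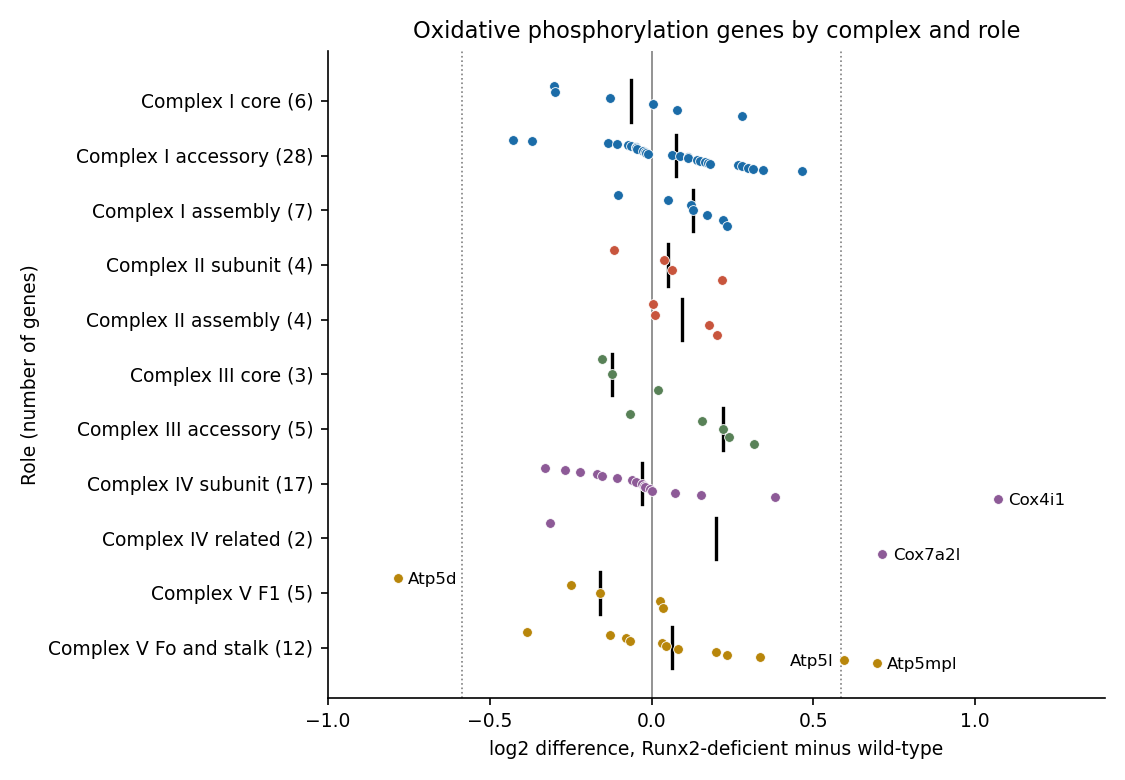
Log2 difference between the Runx2-deficient and the wild-type array (x axis) for each of the 93 genes (1 point per gene), by complex and role (y axis, number of genes in brackets). Black bars are medians of each role, dotted lines mark 1.5-fold, and the 5 named genes lie past it while the other 88 lie between the lines.

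Catalytic subunits of complex I, which bind NADH and carry the flavin and iron-sulfur clusters, went both ways, all within 1.5-fold. Of 6 measured core genes, 3 were above 0 and 3 below, with a median of -0.063. Within 0.25 were 3 of the 6, beside 65.0% of named genes past the brightness level. Ndufs1, the large iron-sulfur subunit of the electron input arm, was at 472 in wild-type pDCs and 574 in Runx2-deficient pDCs, a difference of 0.28. Ndufv1, the flavin-binding subunit of the same arm, was at 710.5 and 578, a difference of -0.30. Ndufv2, their iron-sulfur partner, was at 1551 and 1555. These 3 subunits of one arm therefore gave a higher, a lower and a nearly equal value. In the arm that meets coenzyme Q, Ndufs8 was at 1902 and 1544 (-0.30), Ndufs7 at 6505 and 5947 (-0.13), and Ndufs3 at 1543 and 1630 (0.079). The core gene furthest apart, Ndufs8, stayed within 1.5-fold.

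Accessory subunits of complex I surround the core and stabilise it. Of 28 such genes, 15 were above 0 and 13 below, with a median of 0.076 and 0 genes 1.5-fold apart. The highest was Ndufa6, a subunit of the LYR family that binds the acyl carrier protein, at 629 in wild-type pDCs and 867 in Runx2-deficient pDCs (0.46). Ndufab1, the mitochondrial acyl carrier protein, was at 446 and 541 (0.28). The lowest was Ndufb9, another LYR protein of the membrane arm, at 940 and 698 (-0.43), so the LYR subunits lay at both ends. Ndufs6, which carries a zinc site, was next lowest, at 416 and 322 (-0.37). Ndufv3 and Ndufa11 were on the higher side, at 0.35 and 0.31. Ndufa10, Ndufa3, Ndufb2 and Ndufa13 each lay within 0.03 of 0.

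Assembly factors of complexes I and II, which build the enzymes without staying in them, lay on the higher side by small amounts. Of 11 genes, 10 were above 0 (90.9%), with a median of 0.13 and a range from -0.10 to 0.23. Above 0 were 42.6% of all named genes and 47.8% of those past the brightness level. Ndufaf4 was at 192 in wild-type pDCs and 226 in Runx2-deficient pDCs (0.23), and Ndufaf1 at 219 and 256 (0.22). Ndufaf7, an arginine methyltransferase that modifies a core subunit, was the 1 below 0, at 192 and 179. None was 1.5-fold apart, and 4 of the 11 did not pass the brightness level. By count they can be set beside the 80 structural subunits, of which 40 were above 0 and 39 below, with a median of 0.0021. No test of that difference was made.

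Complex II differed little in any subunit. Sdha, the flavoprotein that oxidises succinate, was at 1425 in wild-type pDCs and 1462 in Runx2-deficient pDCs (0.037), and Sdhb, the iron-sulfur subunit, at 987 and 1147 (0.22). The membrane anchors Sdhc and Sdhd were at 1292 and 1192 (-0.12) and at 971 and 1015 (0.064). Of the 4 subunits, Sdhc was the 1 below 0. Among its assembly factors, Sdhaf3 was at 0.20, Sdhaf2, which inserts the flavin, at 0.18, and Sdhaf1 and Sdhaf4 at 0.0056 and 0.011.

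In complex III the 3 core genes and the 5 small accessory genes had medians of different sign. The core proteins Uqcrc1 and Uqcrc2 were at 1325 in wild-type pDCs and 1190 in Runx2-deficient pDCs (-0.15) and at 3020 and 3062 (0.020), and the Rieske iron-sulfur protein Uqcrfs1 at 281 and 258 (-0.12). Their median was -0.12. Among the accessory genes the median was 0.22 and 4 of 5 were above 0. Uqcrb, which contacts the quinone site, was at 2837 and 3530 (0.32), Uqcr10 at 280 and 330 (0.24), Uqcrh, the hinge protein, at 1795 and 2093 (0.22) and Uqcrq at 542 and 605 (0.16). Uqcr11 was the exception at -0.067. For scale, the middle 50% of named genes past the brightness level ran from -0.19 to 0.16. Above 0 were 42.6% of all named genes and 47.8% of those past the brightness level. Cyc1 (cytochrome c1), the remaining catalytic nuclear gene of the complex, whose name lies outside the rule, was at 1219 and 1106 (-0.14), and Cycs (cytochrome c) at 3654 and 4386 (0.26).

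Cytochrome c oxidase held the gene furthest apart. Cox4i1, the ubiquitous isoform of subunit 4 that is added early in assembly and binds the catalytic core, was at 1109 in wild-type pDCs and 2329 in Runx2-deficient pDCs, 2.10-fold higher (1.07). It has 1 probe set, so no second measurement of it exists on these arrays. Cox5a, which assembles with Cox4i1, did not share this difference, at 595 and 495 (-0.27). Cox5b, which binds zinc, was at 2388 and 2149 (-0.15). Cox6c was the lowest subunit, at 5682 and 4521 (-0.33), and Cox7b was at 4985 and 4433 (-0.17). Cox6b1, which joins the enzyme dimer, was the next highest after Cox4i1, at 2222 and 2893 (0.38). Cox8a was nearly equal, at 4523 and 4507. Of the 17 subunit genes, 4 were above 0 (23.5%), 12 below and 1 at 0, with a median of -0.029 (0.0047 after median centring). Above 0 were 42.6% of all named genes and 47.8% of those past the brightness level. Thus 1 subunit past 1.5-fold stood among others between -0.33 and 0.38.

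Cox7a2l, which binds complex III to complex IV in supercomplexes, was the second gene of the oxidase group past 1.5-fold. It was at 783 in wild-type pDCs and 1284 in Runx2-deficient pDCs, 1.64-fold higher (0.71). A second probe set with this symbol was at 263 and 471 (0.84), also higher. Its paralogue Cox7a2, a regular subunit, was at 448 and 429 (-0.061) and did not share the difference.

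The tissue isoforms of cytochrome c oxidase were each compared between the 2 arrays. Cox6a2, the isoform of subunit 6a known from heart and skeletal muscle and also listed among genes enriched in mouse pDCs, was at 7742 in wild-type pDCs and 7486 in Runx2-deficient pDCs, a difference of -0.048. The median of named genes was at 196 and 186 on these arrays. Its ubiquitous partner Cox6a1 was at 444 and 380 (-0.22). The other muscle isoforms were below the brightness level on both arrays, Cox7a1 at 119 and 116 and Cox8b at 118 and 116. Striated muscle markers gave a summed intensity of 1470 over 8 genes in wild-type pDCs and 1414 in Runx2-deficient pDCs. Of the 8 muscle markers, 5 passed the brightness level and 0 were 1.5-fold apart. Levels of these genes are not ranked against Cox6a2, which differed little between the arrays.

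None of the remaining tissue isoforms was 1.5-fold apart, and Ndufa4l2 was the furthest from 0. Cox4i2, the lung isoform of subunit 4, was at 238 in wild-type pDCs and 221 in Runx2-deficient pDCs (-0.11), while Cox4i1 was higher. The difference of the pair, Cox4i2 minus Cox4i1, was -1.18 on the log2 scale. The testis isoforms Cox6b2 and Cox7b2 were below the brightness level, at 142 and 140 and at 34.1 and 37.9, and Cox8c lay at the level with 191 on both arrays. Ndufa4l2, a relative of Ndufa4 known to be induced in low oxygen, was also below it, at 112 and 90.0 (-0.31), and Ndufa4 was at 343 and 360 (0.072). Of the 15 isoforms and partners, Cox4i1 was the 1 at least 1.5-fold apart.

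**Figure D2:**
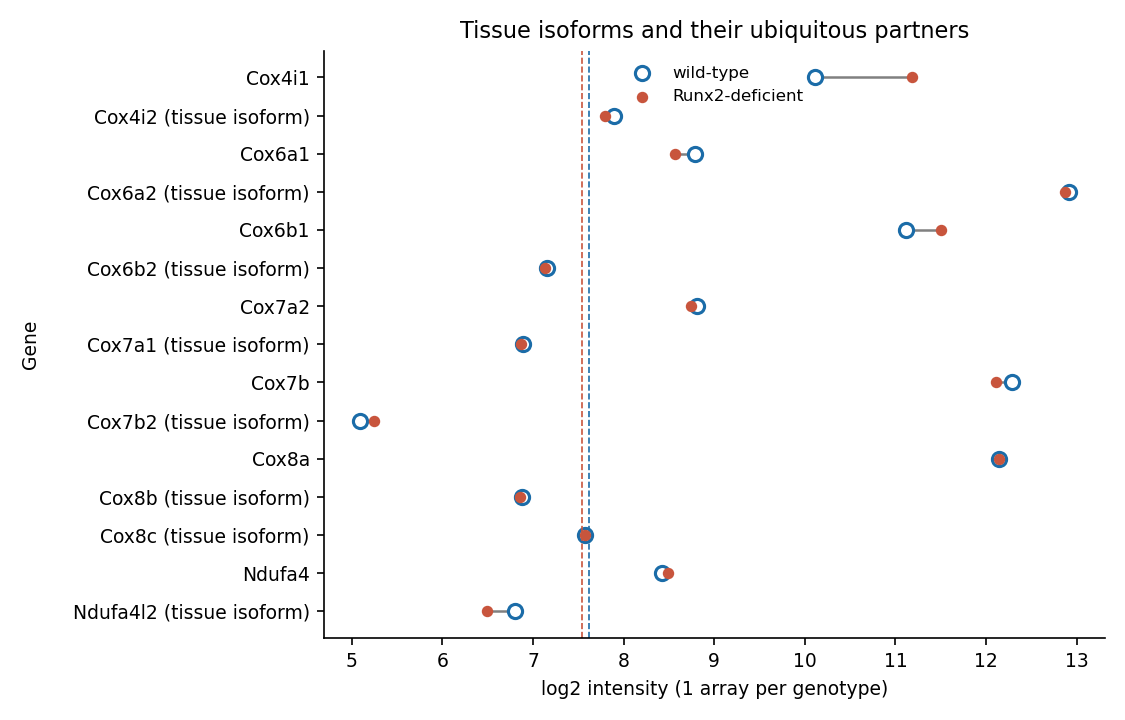
Log2 intensity (x axis) of the ubiquitous subunits and their tissue isoforms (y axis) on the wild-type array (open blue circles) and the Runx2-deficient array (filled red circles). Dashed lines are the medians of all named genes on each array (7.61 wild-type, 7.54 Runx2-deficient), Cox6a2 lies near 13 on both arrays, and Cox4i1 is the 1 gene with well separated circles.

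ATP synthase held genes past 1.5-fold on both sides. Atp5d, the delta subunit of the rotating central stalk of F1 (now Atp5f1d), was at 6361 in wild-type pDCs and 3694 in Runx2-deficient pDCs, 1.72-fold lower (-0.78). The other subunits of the F1 head and stalk were closer together. Atp5a1 (alpha) was at 2080 and 1750 (-0.25), Atp5b (beta, which holds the catalytic sites) at 6172 and 5524 (-0.16), Atp5c1 (gamma) at 2242 and 2299 (0.036) and Atp5e (epsilon, which binds delta) at 440 and 448 (0.026). Atp5d therefore differed from its direct partners in the stalk, gamma and epsilon, which were nearly equal on the arrays.

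Genes of the membrane part Fo and the outer stalk had 8 of 12 members above 0 (66.7%), with a median of 0.062. Above 0 were 42.6% of all named genes and 47.8% of those past the brightness level. Atp5mpl, a small proteolipid of the membrane part (now Atp5mj), was at 933 in wild-type pDCs and 1511 in Runx2-deficient pDCs, 1.62-fold higher (0.70). Atp5l, subunit g, which lies where ATP synthase dimerises, was at 557 and 841, 1.51-fold higher (0.59). This value lay just past 1.5-fold, and it was just short of it, at 0.58, after a loess correction of the difference for its trend with intensity. Atp5j2, subunit f, was at 1941 and 2447 (0.33), and Atp5k, subunit e, which pairs with subunit g, at 703 and 807 (0.20). Atp5md, another small membrane subunit, was at 2066 and 2128 (0.043). The 3 genes for the rotating c ring, which encode the same mature protein, did not go together, with Atp5g1 at 2403 and 1839 (-0.39), Atp5g2 at 4069 and 4304 (0.081) and Atp5g3 at 2079 and 1902 (-0.13). In the outer stalk Atp5o was at 0.23 and Atp5pb, Atp5h and Atp5j lay between -0.078 and 0.033.

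Among the members within 1.5-fold, the highest were Ndufa6 (0.46) and Cox6b1 (0.38). The lowest were Ndufb9 (-0.43) and Atp5g1 (-0.39). Between Atp5l and Ndufa6 no member was found. The set of 5 genes past the threshold was the same after median centring and when the probe sets of a gene were averaged. It lost Atp5l and no other gene after the loess correction, and likewise with 32 added to each intensity, where Atp5l was at 0.57.

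**Figure D3:**
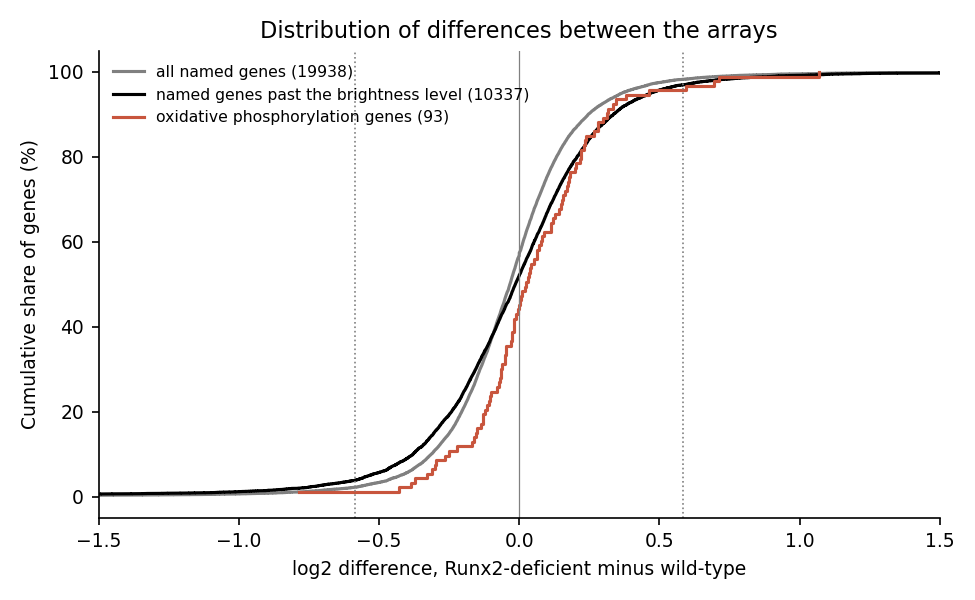
Cumulative share of genes (y axis, %) by log2 difference between the arrays (x axis) for all 19938 named genes (grey), the 10337 past the brightness level (black) and the 93 oxidative phosphorylation genes (red). Dotted lines mark 1.5-fold. Of the members, 41 lie below 0 and 51 above.

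Many oxidative phosphorylation genes have processed copies elsewhere in the genome, and 18 of the 93 had several probe sets under 1 symbol, which may share probes with such copies. Their values are therefore uncertain as to the locus that produced the signal. Within a gene the probe sets were close, with a median spread of 0.11 and a largest spread of 0.22 (Uqcrb, from 0.25 to 0.47). For Atp5l, the 6 probe sets ran from 0.59 to 0.79, and the brightest, used here, was the lowest of them. In 3 genes, Atp5pb, Ndufb11 and Ndufc1, the probe sets lay on both sides of 0, all within 0.13 of it. The 2 probe sets of Atp5g1 gave the same difference to within 6.9e-08 and count as 1 measurement.

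**Figure D4:**
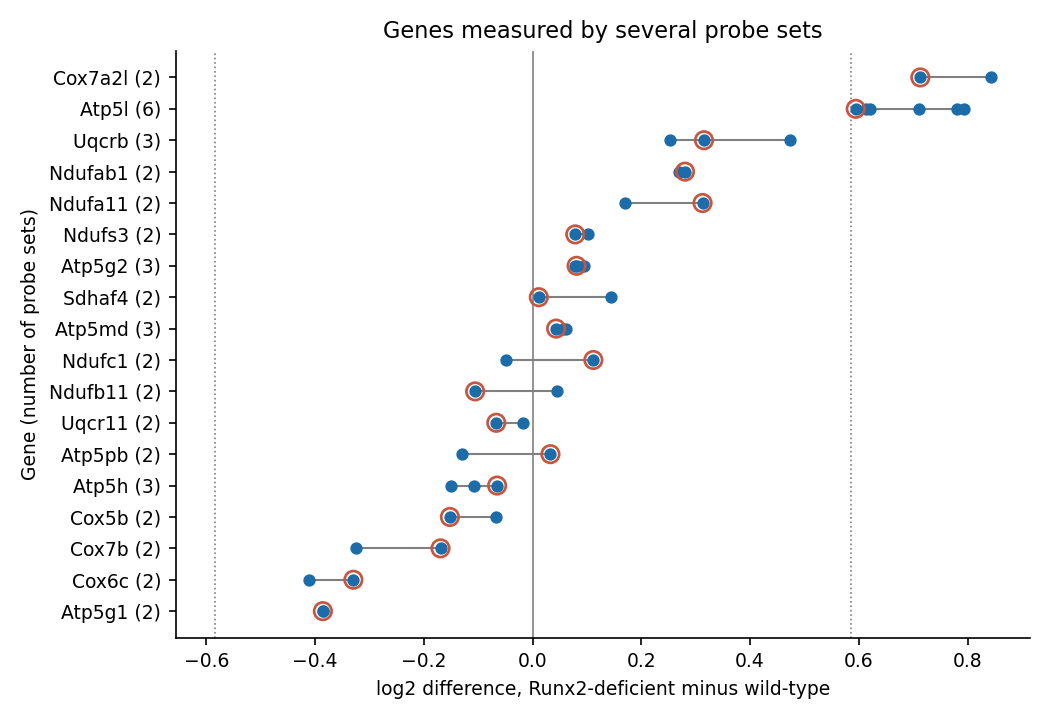
Log2 difference between the arrays (x axis) of each probe set (blue points) of the 18 genes with several (y axis, number in brackets). Red rings mark the brightest probe set, used for the gene, grey lines span the probe sets, and dotted lines mark 1.5-fold. All probe sets of Atp5l and Cox7a2l lie to the right of the upper line.

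Promoter sequences were searched for sites of factors known to control these genes. NRF-1 and the ETS factor GABP (also called NRF-2) are known activators of nuclear respiration genes, YY1 is known to act on several of them, and the RUNX site is the one bound by the deleted factor. RefSeq windows (GRCm38.p6) of 300 bases, from 250 before to 50 after each transcription start, matched 77 of the 93 members. Both strands were searched, and a gene counted where any of its windows held a match. The palindromic NRF-1 core, whose matches are capitalised in the sequences of Cox6a1 and Sdhd, was found in 20 of 77 members (26.0%), beside 7.87% of 15562 named array genes with a window. The ETS core CCGGAAG was found in 21 (27.3%), beside 13.6%, and the YY1 core GCCATNTT in 19 (24.7%), beside 7.71%. The RUNX core TGTGGT was found in 9 (11.7%), beside 16.4%. A match is a description of these letters and does not show binding.

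By complex, NRF-1 matches were found in 8 of 37 complex I genes, 4 of 7 of complex II, 1 of 5 of complex III, 1 of 13 of complex IV and 6 of 15 of complex V. YY1 matches were found in 13 of 37 complex I genes, 1 of 7 of complex II, 0 of 5 of complex III, 1 of 13 of complex IV and 4 of 15 of complex V. Of the transcripts of these factors, Nrf1 was at 486 in wild-type pDCs and 542 in Runx2-deficient pDCs (0.16), Gabpa at 873 and 928 (0.087), Gabpb1, the other GABP subunit, at 412 and 520 (0.34) and Yy1 at 1836 and 1564 (-0.23). Runx1, which binds the same site as Runx2, was at 2266 and 3137 (0.47). The median difference of members was 0.064 with an NRF-1 match and 0.0056 without, 0.043 with and 0.035 without an ETS match, 0.033 with and 0.037 without a YY1 match, and -0.024 with and 0.040 without a RUNX match. No test of these differences was made.

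The windows below show the 250 bases before the start of 7 genes, 5′ to 3′ on the gene's strand, with matches in capitals. Cox7a2l, Atp5l and Atp5d are members past 1.5-fold with a window, Cox6a1 and Sdhd hold NRF-1 matches, Ndufs8 a YY1 match and Ndufab1 a RUNX match. Cox7a2l lies at chr17:83514334-83514583 on the minus strand, Atp5l at chr9:44920743-44920992 on the minus strand, Atp5d at chr10:80142025-80142274 on the plus strand, Cox6a1 at chr5:115348959-115349208 on the minus strand, Sdhd at chr9:50603850-50604099 on the minus strand, Ndufs8 at chr19:3912775-3913024 on the minus strand and Ndufab1 at chr7:122101849-122102098 on the minus strand.
Cox7a2l: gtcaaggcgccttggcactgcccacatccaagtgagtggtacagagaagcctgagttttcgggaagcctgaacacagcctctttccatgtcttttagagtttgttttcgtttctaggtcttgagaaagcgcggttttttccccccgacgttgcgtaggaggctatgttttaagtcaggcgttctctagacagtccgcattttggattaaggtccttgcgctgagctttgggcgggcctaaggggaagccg
Atp5l: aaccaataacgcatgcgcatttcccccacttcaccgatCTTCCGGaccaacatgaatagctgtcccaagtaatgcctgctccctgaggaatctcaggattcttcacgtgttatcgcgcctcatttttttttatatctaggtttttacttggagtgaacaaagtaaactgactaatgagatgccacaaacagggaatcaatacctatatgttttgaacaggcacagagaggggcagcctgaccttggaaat
Atp5d: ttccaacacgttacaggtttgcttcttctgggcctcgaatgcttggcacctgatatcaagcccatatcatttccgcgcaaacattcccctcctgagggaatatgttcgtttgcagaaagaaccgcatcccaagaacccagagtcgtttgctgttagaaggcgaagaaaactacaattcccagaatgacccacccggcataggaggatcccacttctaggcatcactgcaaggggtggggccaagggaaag
Cox6a1: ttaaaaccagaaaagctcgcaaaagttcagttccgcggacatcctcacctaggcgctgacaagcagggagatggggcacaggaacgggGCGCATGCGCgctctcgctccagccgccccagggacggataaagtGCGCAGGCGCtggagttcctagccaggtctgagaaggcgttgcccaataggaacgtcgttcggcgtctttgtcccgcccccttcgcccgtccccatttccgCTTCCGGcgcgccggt
Sdhd: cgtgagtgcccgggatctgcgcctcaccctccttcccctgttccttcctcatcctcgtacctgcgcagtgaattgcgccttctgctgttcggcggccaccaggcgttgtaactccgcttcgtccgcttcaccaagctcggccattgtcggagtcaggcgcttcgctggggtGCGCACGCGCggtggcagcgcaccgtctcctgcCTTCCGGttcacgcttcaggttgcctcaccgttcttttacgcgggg
Ndufs8: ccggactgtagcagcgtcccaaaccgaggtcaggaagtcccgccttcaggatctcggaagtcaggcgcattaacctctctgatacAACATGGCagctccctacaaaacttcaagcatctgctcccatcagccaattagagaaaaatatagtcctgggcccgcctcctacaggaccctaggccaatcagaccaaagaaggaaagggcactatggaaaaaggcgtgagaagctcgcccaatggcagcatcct
Ndufab1: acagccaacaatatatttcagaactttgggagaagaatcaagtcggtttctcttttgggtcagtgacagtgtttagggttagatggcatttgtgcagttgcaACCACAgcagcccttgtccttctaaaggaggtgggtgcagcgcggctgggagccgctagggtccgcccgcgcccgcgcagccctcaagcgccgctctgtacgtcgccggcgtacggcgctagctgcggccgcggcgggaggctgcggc
Cox6a1 holds 2 NRF-1 matches, the nearer from 117 to 108 bases before the start, and an ETS match from 16 to 10 bases before it. Sdhd holds 1 of each, and Atp5l an ETS match from 212 to 206 bases before the start. The windows of Cox7a2l and Atp5d hold none of the 4 cores in these bases. Members with and without matches are thus found among those past 1.5-fold.

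Other genes of respiration were compared with lists of their own. In assembly factors outside the name rule, 0 of 9 for complex I, 0 of 22 for complexes III and IV and 0 of 5 for complex V were 1.5-fold apart, with medians of 0.063, -0.012 and -0.13. Above 0 were 7 of the 9, 10 of the 22 and 1 of the 5. The complex I factor Lyrm2 was the highest of these assembly factors at 0.37, and Cox10, which makes heme for the oxidase, the lowest at -0.27. Coenzyme Q synthesis genes, 12 measured, had a median of -0.042 and ran from Coq4 (-0.36) to Coq10b (0.26). Citrate cycle genes, 13 measured, had a median of 0.035, with Suclg1, a subunit of succinyl-CoA ligase, at 525 in wild-type pDCs and 740 in Runx2-deficient pDCs (0.50) and Mdh2, malate dehydrogenase, at 2510 and 2061 (-0.28). The 6 measured mitochondrial carriers and channels had a median of -0.075, from the phosphate carrier Slc25a3 (-0.28) to Vdac3 (0.32). None of these lists held a gene 1.5-fold apart in either direction.

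Regulators of mitochondrial biogenesis held 1 gene at least 2-fold lower and 0 higher. Ppargc1a (PGC-1alpha), the coactivator that raises respiration genes in muscle and brown fat, was at 273 in wild-type pDCs and 129 in Runx2-deficient pDCs, 2.11-fold lower (-1.08). The Runx2-deficient value lay below the brightness level, and a second, dimmer probe set was at 85.8 and 75.9 (-0.18). Tfb2m, a factor of mitochondrial transcription, was at 584 and 816 (0.48), and Tfam, which packages mitochondrial DNA, at 112 and 155 (0.47), below the brightness level. Esrra, a nuclear receptor that works with PGC-1alpha, was at 290 and 225 (-0.37), and Tfb1m at 617 and 485 (-0.35). Of the 13 regulators 8 were above 0, with a median of 0.16. Over the 10 past the brightness level the median was -0.053. Above 0 were 61.5% of the 13, beside 42.6% of all named genes and 47.8% of those past the brightness level.

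Glycolysis genes lay on the lower side. Of 14 measured, 11 were below 0, as were 11299 of the 19938 named genes and 5370 of the 10337 past the brightness level. The glycolysis median was -0.21, beside -0.014 over named genes past the brightness level, and 0 were 1.5-fold apart. Pgam1, phosphoglycerate mutase, was at 1216 in wild-type pDCs and 837 in Runx2-deficient pDCs (-0.54), with all 3 of its probe sets lower, though 2 of these hold equal values. Aldoa, aldolase, was at 1844 and 1307 (-0.50). Ldhb, the lactate dehydrogenase chain of oxidative tissues, was the highest at 502 and 679 (0.44), while Ldha differed by -0.062. A second, dimmer probe set went the other way for Hk1 (0.22, beside -0.12) and was near 0 for Pkm (-0.019, beside -0.21). The further probe sets of Pgk1 and Ldhb kept their side. Gapdh, Eno1 and Gpi1 were not analysed here. Glycolysis genes are active in many blood cells, and the granulocyte and erythroid marker sums were also lower on the Runx2-deficient array, at 2213 against 17519 and 884 against 2468. Their part in this list was not tested.

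**Figure D5:**
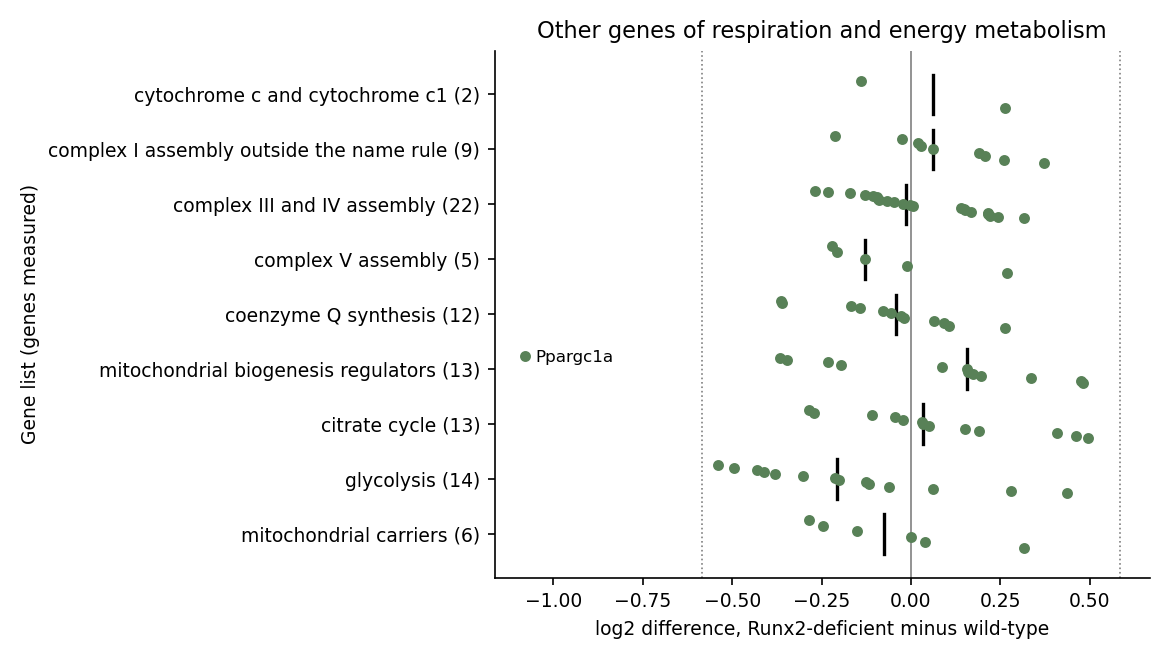
Log2 difference between the arrays (x axis) of each measured gene (green points) in lists of other respiration and energy genes (y axis, number measured in brackets), with black bars at the medians and dotted lines at 1.5-fold. Ppargc1a, at -1.08, is the 1 gene outside the lines, and the glycolysis median lies at -0.21.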

How the data were processed

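Values were used as deposited, as intensities on a linear scale, 1 per probe set and array for 35556 probe sets. RMA, named in the submitters' processing notes, was the authors' method, and it corrects background, gives the arrays a common distribution and summarises probes. Not given in the sources used here are its software and version, the annotation and which arrays were normalised together. Dim probe sets lose part of their difference in RMA, and no detection call accompanies the values. Columns ran from 15.5 to 20364 (wild-type) and from 15.3 to 19577 (Runx2-deficient), with medians of 183 and 182. The number of arrays limits the precision.

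Gene symbols came from the platform annotation, and only probe sets with 1 symbol (21789) were named. All 93 members matched RefSeq by gene identifier with the same symbol. Of several probe sets the one with the highest mean log2 intensity was used. No test was possible with 1 array per genotype, so counts past 1.5-fold and 2-fold were set beside their share of all named genes. The centring and loess steps were run on simulated differences with planted shifts well past 1.5-fold, which checks the code and not the member counts. Members and lists were chosen with earlier results of these data known. Every member could be named, with full values for those 1.5-fold apart, the extremes of each complex, the core subunits and the isoforms; other genes were named as extremes of their lists, as marker genes, or after their values were seen. Promoter motifs and neighbouring genes were also chosen after the values were seen. Alternatives were median centring, loess (span 0.3), the mean of probe sets, a brightness filter, 32 added to each intensity, and structural subunits only. Scripts ran in Python 3.11.15 with statsmodels 0.14.6 (loess), pandas 2.3.3, numpy 2.4.6 and, for plots, matplotlib 3.10.9.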

Additional observations from a re-analysis of the deposited data

How the results depend on the processing

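No paired analysis was possible because each genotype has 1 array. For a value with no replicates, a move of 0.1 on the log2 scale was taken as a change. Of 78 comparisons of counts and medians with an alternative, 75 stayed within it or within 1.5 times the count. The median of the mitochondrial biogenesis regulators moved from 0.16 to -0.053 with the brightness filter, which leaves 10 of 13 genes. Without the 18 genes of several probe sets, an alternative chosen after seeing the data, members 1.5-fold apart fell from 5 to 3 and those higher from 4 to 2, because Cox7a2l and Atp5l have several. All 160 comparisons of single genes moved by less than 0.1, and no gene past 1.5-fold changed sign. Over the scalings, the probe set mean and the pseudocount, Cox4i1 ran from 1.05 to 1.10 and Atp5d from -0.78 to -0.75. Median centring shifts all differences by 0.033, and the probe set mean leaves genes with 1 probe set unchanged. Many of the 160 comparisons, and some of the 78, therefore could not move by 0.1. Dim probe sets, 12 of the 93 members, bound what the arrays can show, and differences between mice or hybridisations are unknown.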

Other observations

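Members of the name rule whose probe sets carry several gene symbols were left out of the 93 genes. The shared Ndufb4 and Ndufb4b probe sets were at 2693 and 3044 in wild-type pDCs and at 2383 and 2765 in Runx2-deficient pDCs (-0.18 and -0.14). The 3 shared Cox7c and Gm12338 probe sets differed by -0.084 to -0.048. A probe set shared by Ndufs5 and its pseudogene was at 340 and 281 (-0.27), on the same side as the Ndufs5 probe set with 1 symbol (-0.14). None was 1.5-fold apart.

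Genes next to the 5 members past 1.5-fold in RefSeq order were looked at after these values were seen, up to 2 protein-coding genes on each side. Near Atp5d, Stk11 was at 1755 in wild-type pDCs and 1181 in Runx2-deficient pDCs (-0.57), Midn at 901 and 673 (-0.42), Cirbp at 1080 and 673 (-0.68, past 1.5-fold) and Cbarp, below the brightness level, at -0.25. All 4 were below 0, as were 11299 of the 19938 named genes. Near Cox4i1, Emc8 was at 0.11, the pDC factor gene Irf8 at 0.033, Foxf1 at -0.083 and 1190005I06Rik at -0.16. Near Cox7a2l, Pkdcc was at 0.23, Eml4 at -0.0051, Kcng3 at -0.20 and Mta3 at -0.025. Near Atp5l, Ttc36 was at -0.11, Kmt2a at 0.12, Ube4a at 0.23 and Cd3g at -0.028. Near Atp5mpl, Zfyve21 was at -0.11, Ppp1r13b at -0.37 and Tdrd9 at 0.037, and Rd3l was not analysed here. No test of such runs was made.

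Cox8c had the same value on both arrays. So did 255 of all 35556 probe sets, 166 of them with 1 gene symbol.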
